A study of Mus musculus with 9 samples.

Results

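*Fam107a* and 8 other genes of radial glia and astrocytes were followed in the P0 mouse cerebral cortex. The genes are *Fam107a*, *Hopx*, *Slc1a3*, *Fabp7*, *Ptprz1*, *Vim*, *Aldh1l1*, *Aqp4* and *Gfap*, which are 9 of the 24624 genes in the deposited table and were matched there by symbol. *Fam107a* was put on this list because it lies near *Fezf2* on chromosome 14 and was lower in both mutant groups. Its values in those groups therefore describe how it was chosen and are given with no test. The other 8 genes were listed for their cell type, with earlier results of these data known.

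FEZF2 is a zinc finger transcription factor of deep-layer cortical projection neurons. RNA was taken from the cerebral cortex of single pups at postnatal day 0, and each library is the paired hemispheres of 1 mouse, with 3 libraries of *Fezf2+/+*, 4 of *Fezf2-/-* and 2 of *Fezf2-/-; Fezf2-EnR* pups. The parents were *Fezf2+/-* mice crossed with *Fezf2+/-* mice that carried the *Fezf2-EnR* transgene. The comparisons ask what the loss of *Fezf2* changes and which of these changes an engineered repressor restores. Per the study's methods, the null allele carries a knocked-in reporter, human placental alkaline phosphatase, and *Fezf2-EnR* is a bacterial artificial chromosome with the region around *Fezf2*, into which a fusion of the FEZF2 DNA-binding domain with the repressor domain of the engrailed protein was placed at the *Fezf2* start codon. The transgene is described as 1 mouse line. All pups came from 3 litters. Of the *Fezf2+/+* pups 2 came from litter m1 and 1 from m2, of the *Fezf2-/-* pups 2 from m1 and 2 from m3, and the *Fezf2-/-; Fezf2-EnR* pups from m3 (bc208) and m2 (bc209). No litter holds all 3 genotypes.

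Radial glia are the stem cells of the embryonic cortex. Their cell bodies line the ventricle, their long processes guide newborn neurons, and around birth they turn from making neurons to making glia, including astrocytes. Astrocytes take up glutamate and water and ensheath vessels and synapses, and early astrocytes still share many genes with radial glia.

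The libraries held between 18716575 and 25127623 reads, recovered from the deposited values, each of which is the reads of a gene scaled by a DESeq size factor. These scaled values are called normalized expression. *Fezf2* lay between 979 and 1232 in the *Fezf2+/+* libraries, between 193 and 242 in the *Fezf2-/-* libraries, and at 907 and 1001 in the *Fezf2-/-; Fezf2-EnR* libraries, where endogenous and transgene reads cannot be told apart. *Emx1* is a transcription factor of the dorsal telencephalon. It was between 512 and 579 in *Fezf2+/+*, between 376 and 428 in *Fezf2-/-*, and at 460 and 445 in *Fezf2-/-; Fezf2-EnR*. The choroid plexus transcript *Ttr* was at or below 3.27 in all 9 libraries. In *Fezf2-/-; Fezf2-EnR* replicate bc209 the summed level of 6 genes of proliferating cells was 2831, against 1327 to 2215 in the other 8 libraries, and that of 5 genes of intermediate progenitors was 1744, against 620 to 1036. Replicates bc204 (*Fezf2-/-*) and bc208 (with the transgene), both of litter m3, stood apart in 7 genes of striatal projection neurons, with summed levels of 2322 and 2006 against 792 to 1574 elsewhere. The lowest sum, 792, was that of *Fezf2-/-* replicate bc207, which is also of litter m3. The values of the 9 genes are given for each library so that bc204, bc208 and bc209 can be followed.

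*Fam107a* encodes a small actin-associated protein that responds to stress and glucocorticoids and is known as a transcript of outer radial glia and astrocytes. The gene (ENSMUSG00000021750.15) is on the minus strand at chr14:8296274-8318023 in GRCm38, 4.02 Mb from *Fezf2* (chr14:12342094-12348189). RefSeq lists start sites of *Fam107a* in a pair of places 7.8 kb apart, and the deposited table has 1 value for the whole gene. The sequence upstream of the inner start site is shown because the gene was chosen for its level, followed by that of *Slc1a3*, the only one of the 8 genes found in the RefSeq promoter table with a match to the STAT palindrome. Both are from RefSeq on GRCm38.p6, written 5′ to 3′ on the minus strand, at chr14:8309796-8310029 (234 bases, with bases inside an annotated exon left off) and chr15:8710808-8711057 (250 bases). Capitals mark matches to the NFI core TTGGC, the STAT palindrome TTCNNNGAA or the SOX core ACAAT on either strand.
Fam107a: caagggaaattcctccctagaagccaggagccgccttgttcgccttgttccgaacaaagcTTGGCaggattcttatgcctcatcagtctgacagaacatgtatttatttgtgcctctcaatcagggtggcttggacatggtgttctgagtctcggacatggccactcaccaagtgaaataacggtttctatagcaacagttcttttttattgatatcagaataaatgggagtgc
Slc1a3: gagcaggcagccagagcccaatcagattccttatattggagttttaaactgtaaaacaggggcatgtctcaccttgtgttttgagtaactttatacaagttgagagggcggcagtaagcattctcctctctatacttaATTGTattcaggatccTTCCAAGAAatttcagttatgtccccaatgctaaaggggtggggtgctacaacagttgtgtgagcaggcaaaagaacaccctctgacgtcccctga

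The *Fam107a* window held 1 match to the NFI core, as did 41.5% of the 32851 windows of 250 bases in that table. It held no match to the STAT palindrome, found in 7.02% of those windows, or to the SOX core, found in 27.7%. The *Slc1a3* window held 1 STAT palindrome and 1 SOX core, the latter on the opposite strand. These matches describe letters in a window and are not binding sites.

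*Fam107a* had a normalized expression of 85.3, 81.0 and 58.0 in the *Fezf2+/+* replicates bc201, bc202 and bc203. In the *Fezf2-/-* replicates bc204, bc205, bc206 and bc207 it was 43.2, 34.9, 37.5 and 25.8. In the *Fezf2-/-; Fezf2-EnR* replicates bc208 and bc209 it was 24.9 and 17.5. Every *Fezf2-/-* library was below every *Fezf2+/+* library, and both *Fezf2-/-; Fezf2-EnR* libraries were below every *Fezf2-/-* library. The highest level was therefore in the wild type and the lowest in the cortices that carried the transgene. There the reads counted as *Fezf2*, at 907 and 1001, include those of the transgene on a *Fezf2-/-* background. The group means were 74.8 ± 14.7 (SD, n = 3), 35.3 ± 7.27 (SD, n = 4) and 21.2 ± 5.24 (SD, n = 2).

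**Figure D1:**
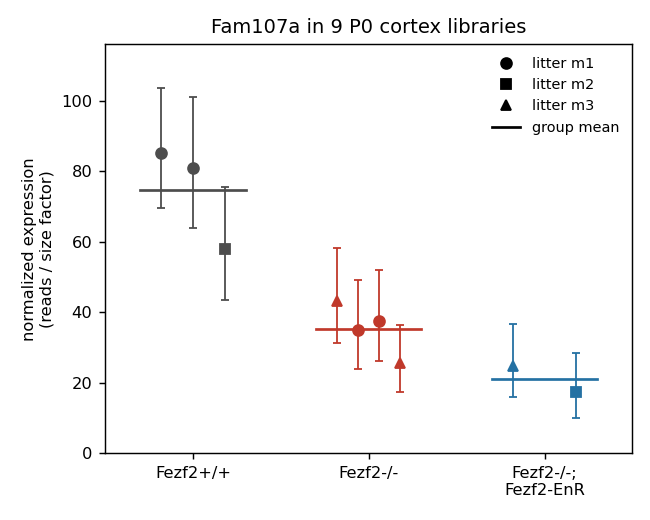
Normalized expression of *Fam107a* (reads scaled by a size factor) in each of the 9 libraries, by genotype. Bars on the points are 95% Poisson intervals of the reads, which cover counting error only, horizontal lines are group means, and marker shapes give the litter. The 3 *Fezf2+/+* libraries sit between 58.0 and 85.3, the 4 *Fezf2-/-* libraries between 25.8 and 43.2, and the 2 *Fezf2-/-; Fezf2-EnR* libraries at 24.9 and 17.5.

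The log2 fold change of *Fam107a* on the log2(value + 1) scale was -1.06 (standard error 0.23) in *Fezf2-/-* against *Fezf2+/+* and -1.77 (standard error 0.27) in *Fezf2-/-; Fezf2-EnR* against *Fezf2+/+*. It was -0.71 (standard error 0.26) in *Fezf2-/-; Fezf2-EnR* against *Fezf2-/-*. Mean expression was 2.12-fold higher in *Fezf2+/+* than in *Fezf2-/-* and 3.53-fold higher in *Fezf2+/+* than in *Fezf2-/-; Fezf2-EnR*. Each of these comparisons, also that between the mutant groups, uses values on which the gene was chosen. The level behind them is low. The libraries with the most and fewest *Fam107a* reads held 101 and 16, and the lowest *Fezf2-/-* library, with 31 reads and a 95% Poisson interval of 17.5 to 36.6 in normalized expression, cannot be told from the higher *Fezf2-/-; Fezf2-EnR* library at 24.9 by counting error.

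Within litters, *Fam107a* had the values that follow from the groups above. In litter m1 the mean of *Fam107a* was 83.2 in 2 *Fezf2+/+* libraries and 36.2 in 2 *Fezf2-/-* libraries. In litter m2 it was 58.0 in *Fezf2+/+* and 17.5 in *Fezf2-/-; Fezf2-EnR*, with 1 library of each. In litter m3 it was 34.5 over 2 *Fezf2-/-* libraries and 24.9 in *Fezf2-/-; Fezf2-EnR*, a log2 difference of -0.41 that was smaller than that over all libraries. The *Fezf2-/-* libraries of litters m1 and m3 overlapped.

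The related gene *Fam107b* gave other values. Its means in *Fezf2+/+*, *Fezf2-/-* and *Fezf2-/-; Fezf2-EnR* were 1368 ± 123 (SD, n = 3), 1248 ± 114 (SD, n = 4) and 1585 ± 357 (SD, n = 2), with log2 fold changes against *Fezf2+/+* of -0.13 (limma adjusted p = 0.73) and 0.20 (limma adjusted p = 0.45). The limma fit covered the 16197 genes whose mean across libraries was not under 10, and a gene was called at a Benjamini-Hochberg adjusted p under 0.05.

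The neighbours of *Fam107a* on chromosome 14 were set beside it. Among the 8 genes tested within 500 kb, a distance chosen after the data were seen, 1 was called in *Fezf2-/-* against *Fezf2+/+*, 0 in *Fezf2-/-; Fezf2-EnR* against *Fezf2+/+* and 0 in *Fezf2-/-; Fezf2-EnR* against *Fezf2-/-*. Over all genes tested, limma called 0.858%, 0.117% and 0.766% in these comparisons. The called gene was *Pdhb*, which encodes the beta subunit of the E1 component of pyruvate dehydrogenase and lies 123.2 kb from *Fam107a* at chr14:8165996-8173025. *Pdhb* was 1867, 1986 and 1969 in *Fezf2+/+*, 1651, 1504, 1541 and 1491 in *Fezf2-/-*, and 1541 and 1540 in *Fezf2-/-; Fezf2-EnR*. Every library of both mutant groups was below every *Fezf2+/+* library. Of the 8 neighbours, 4 did not overlap with *Fezf2+/+* in *Fezf2-/-*, beside 13.0% of all genes tested. In *Fezf2-/-; Fezf2-EnR* 4 did not overlap, beside 34.6%. In *Fezf2-/-* those besides *Pdhb* were *Rpp14* and *Pxk*, which were lower, and 4930452B06Rik, which was higher. On the log2 scale *Pdhb* differed by -0.33 in *Fezf2-/-* (standard error 0.06, limma adjusted p = 0.027) and also -0.33 in *Fezf2-/-; Fezf2-EnR* (limma adjusted p = 0.096), and between the mutant groups it was -0.005 (limma adjusted p = 0.98). With litter as a block the adjusted p of the former was 0.051, and over fits that each left out 1 library it ranged from 0.027 to 0.17, highest without *Fezf2+/+* replicate bc202. DESeq2 on whole reads also called *Pdhb* in *Fezf2-/-; Fezf2-EnR* against *Fezf2+/+* (adjusted p = 0.0033).

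Between *Pdhb* and *Fam107a* lies *Kctd6*, an adaptor of a ubiquitin ligase, 72.7 kb from *Fam107a*. Its means were 313 in *Fezf2+/+*, 311 in *Fezf2-/-* and 260 in *Fezf2-/-; Fezf2-EnR*, with log2 fold changes against *Fezf2+/+* of -0.01 (limma adjusted p = 0.98) and -0.26 (limma adjusted p = 0.19). On the other side the nearest gene tested was 4930452B06Rik, at 113.2 kb. It was 111, 121 and 110 in *Fezf2+/+*, between 145 and 174 in *Fezf2-/-*, and 162 and 130 in *Fezf2-/-; Fezf2-EnR*, with log2 fold changes of 0.47 (limma adjusted p = 0.14) and 0.35 (limma adjusted p = 0.22). In both mutant groups its libraries were above those of *Fezf2+/+* without overlap, as they were for 6.53% of all genes tested in *Fezf2-/-* and 17.3% in *Fezf2-/-; Fezf2-EnR*. Other neighbours had log2 fold changes in *Fezf2-/-* from -0.25 (*Pxk*) to 0.27 (*Abhd6*).

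**Figure D2:**
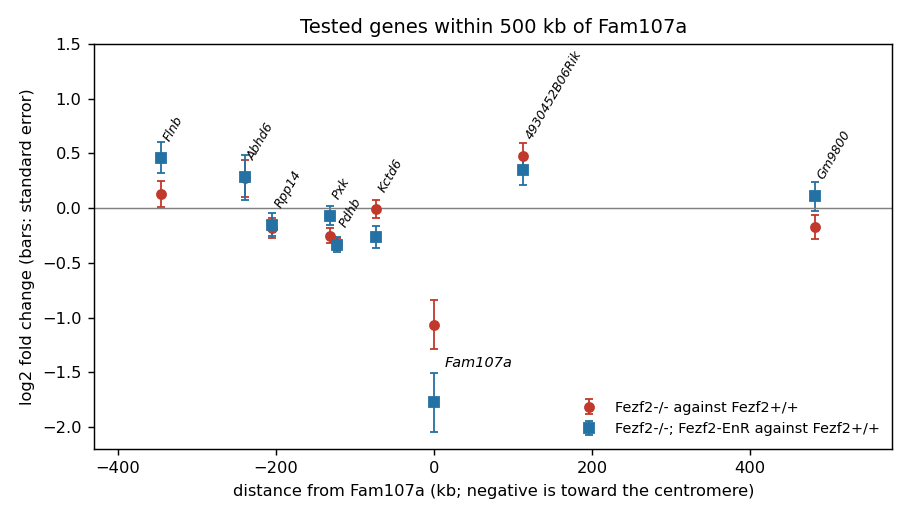
Log2 fold change against *Fezf2+/+* (points, with standard errors as bars) of *Fam107a* and the 8 tested genes within 500 kb of it, by distance in kb. Circles are *Fezf2-/-* and squares *Fezf2-/-; Fezf2-EnR*. *Fam107a*, which was chosen on its values in the mutant groups, lies at -1.06 and -1.77, below all 8 neighbours. Among these, *Pdhb* lies at -0.33 in both.

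In the wider stretch between *Fam107a* and *Fezf2*, 7 other genes were tested. In *Fezf2-/-; Fezf2-EnR* against *Fezf2+/+*, 2 of them rose, 3830406C13Rik and Gm49355, which overlap each other close to *Fezf2*. The means of the former in *Fezf2+/+*, *Fezf2-/-* and *Fezf2-/-; Fezf2-EnR* were 450 ± 24.5 (SD, n = 3), 682 ± 44.2 (SD, n = 4) and 1465 ± 1.27 (SD, n = 2), and its log2 fold change in the last against the first was 1.70 (limma adjusted p = 1.36e-05). It was also called in *Fezf2-/-* (log2 fold change 0.60, limma adjusted p = 0.0027). The bacterial artificial chromosome of the transgene covers sequence around *Fezf2*, and reads from it cannot be told apart from those of the chromosome. As far again on the centromeric side of *Fam107a*, 28 genes were tested, of which 10 were called higher and 2 lower in *Fezf2-/-*. Except for *Pdhb*, the called genes there are predicted genes with near-identical copies, such as Gm3500 and Gm10406, whose reads may be split between copies, and their values are uncertain. As far again on the telomeric side of *Fezf2*, 14 genes were tested and *Oxsm*, a mitochondrial fatty acid synthesis enzyme, was called (log2 fold change 0.79, limma adjusted p = 0.022 in *Fezf2-/-*).

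Of the other 8 genes limma called 0 in *Fezf2-/-* against *Fezf2+/+*, and so did edgeR and DESeq2 on whole reads. In this comparison the log2 fold changes of all 8 were above 0, from 0.04 for *Gfap* to 0.42 for *Hopx*, with a median of 0.25 beside a median of 0.00 over all genes tested. An unadjusted p under 0.05 was reached by 4 of the 8, *Hopx*, *Slc1a3*, *Ptprz1* and *Aldh1l1*, and by 10.8% of all genes tested. The libraries of the 2 groups did not overlap for 2 of the 8, *Hopx* and *Aldh1l1*, beside 13.0% of all genes tested. Without *Fezf2+/+* replicate bc203, 7 of the 8 were above 0 with a median of 0.18. With litter as a block 7 of the 8 were above 0 with a median of 0.10, and in litter m1 alone 7 with a median of 0.12. These 8 log2 fold changes share the same 7 libraries and are not 8 independent observations.

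Against *Fezf2+/+*, the *Fezf2-/-; Fezf2-EnR* libraries again gave 0 calls among the 8 with limma, edgeR and DESeq2. The log2 fold changes were above 0 for 6 and below 0 for *Aqp4* and *Gfap*, with a median of 0.22. Without replicate bc209 all 8 were above 0 with a median of 0.34, and without replicate bc208 5 were above 0 with a median of 0.13. An unadjusted p under 0.05 was reached by *Slc1a3*, *Fabp7*, *Ptprz1* and *Vim*, which are 4 of the 8, beside 19.3% of all genes tested. The same 4 had libraries that did not overlap, beside 34.6% of all genes tested. Between the mutant groups (*Fezf2-/-; Fezf2-EnR* against *Fezf2-/-*) all 3 tools called 0, none of the 8 reached an unadjusted p under 0.05, where 16.9% of all genes did, and the groups overlapped for all 8, where 24.6% of all genes tested did not overlap. Of the 8 log2 fold changes, 4 were above 0 and 4 below. Without replicate bc209, 7 of the 8 were above 0 with a median of 0.09, and without replicate bc208 limma called 1 of the 8, *Aqp4*, where it called 6.70% of all genes tested.

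**Figure D3:**
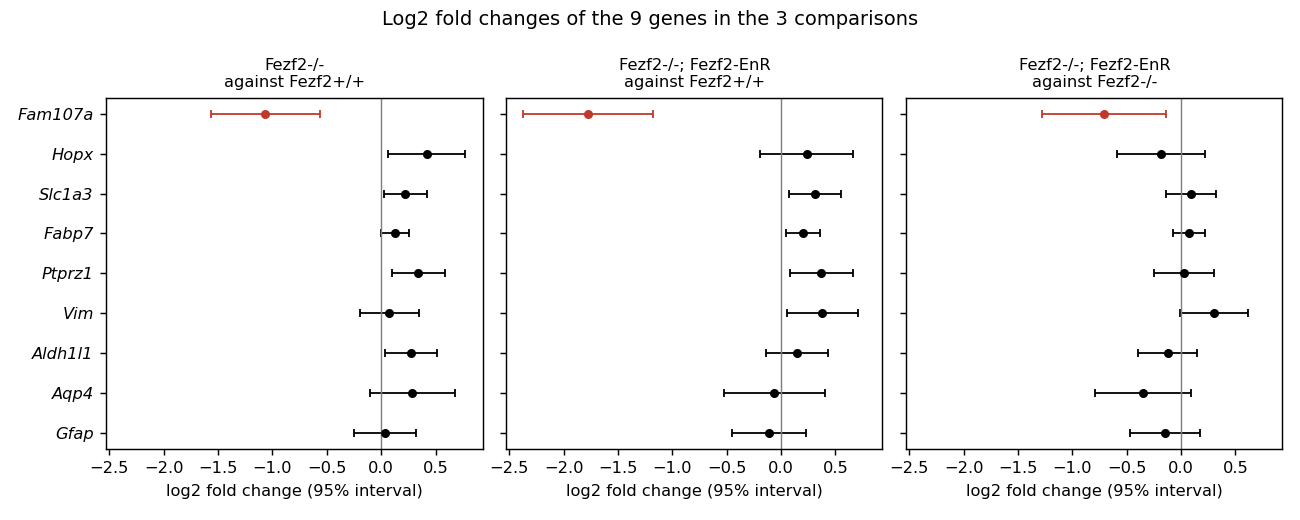
Log2 fold change of each of the 9 genes in the 3 comparisons, with the 95% interval of the limma fit as bars. *Fam107a* (red) was chosen on its values in the mutant groups. The other 8 lie between 0.04 and 0.42, between -0.11 and 0.38, and between -0.35 and 0.30 from the left panel to the right.

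Per kb of annotated exon, the 9 genes span a wide range in the *Fezf2+/+* cortex. *Fabp7* was highest, at a mean of 5135 normalized reads per kb, followed by *Ptprz1* at 672, *Slc1a3* at 506, *Vim* at 390 and *Aldh1l1* at 214. *Aqp4* (89.2), *Gfap* (69.3), *Hopx* (45.4) and *Fam107a* (19.3) came last. For no pair of neighbours in this order did the 3 *Fezf2+/+* libraries overlap. The radial glia genes *Fabp7*, *Ptprz1* and *Slc1a3* were thus well above the astrocyte genes *Aqp4* and *Gfap* in level, while the outer radial glia genes *Hopx* and *Fam107a* were near the middle of all genes in the table by mean expression, at percentiles 51.2 and 46.6.

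*Hopx* encodes a small homeodomain protein that does not bind DNA and marks outer radial glia and, later, astrocytes. The gene lies at chr5:77086988-77115121. *Hopx* was 67.6, 63.1 and 75.9 in *Fezf2+/+*, 107, 106, 77.2 and 82.2 in *Fezf2-/-*, and 89.6 and 73.2 in *Fezf2-/-; Fezf2-EnR*. All *Fezf2-/-* libraries were above all *Fezf2+/+* libraries, the nearest pair being 77.2 and 75.9, and *Fezf2-/-; Fezf2-EnR* overlapped both. The log2 fold change in *Fezf2-/-* was 0.42 (95% interval 0.06 to 0.78, limma adjusted p = 0.37). *Hopx* and *Fam107a* mark the same class of progenitor, but the sign of *Fam107a* was fixed by how it was chosen. The signs of the pair are therefore not compared. An exon of the antisense gene *Hopxos* overlaps *Hopx*, and since the use of strand in the counting is not given, reads of the pair cannot be told apart.

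*Slc1a3* encodes the glutamate and aspartate transporter GLAST, used by radial glia and astrocytes, at chr15:8634124-8710764. Its values were 4612, 4135 and 4202 in *Fezf2+/+*, 5415, 4825, 4373 and 5607 in *Fezf2-/-*, and 5759 and 4996 in *Fezf2-/-; Fezf2-EnR*. Both *Fezf2-/-; Fezf2-EnR* libraries were above all *Fezf2+/+* libraries, whereas *Fezf2-/-* replicate bc206 fell inside the *Fezf2+/+* range. Its log2 fold change was 0.22 (95% interval 0.02 to 0.42, limma adjusted p = 0.40) in *Fezf2-/-* and 0.32 (95% interval 0.08 to 0.56, limma adjusted p = 0.17) in *Fezf2-/-; Fezf2-EnR*. The 2 *Fezf2-/-* libraries of litter m3 were above the 2 of litter m1, with means of 5511 and 4599, and within litter m1 the log2 difference between the genotypes was 0.07. Under the litter block the values were 0.10 in *Fezf2-/-* and 0.20 in *Fezf2-/-; Fezf2-EnR*.

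*Fabp7*, or brain lipid-binding protein, carries fatty acids in radial glia and lies at chr10:57784881-57788450. It was 6240, 6702 and 6314 in *Fezf2+/+*, 7661, 6926, 6640 and 6842 in *Fezf2-/-*, and 7512 and 7215 in *Fezf2-/-; Fezf2-EnR*. The libraries of *Fezf2-/-* and *Fezf2+/+* overlapped, and the log2 fold change of 0.13 had a 95% interval of -0.01 to 0.26 (limma adjusted p = 0.48), and it was 0.08 with litter as a block and 0.07 in litter m1 alone. With the transgene it was 0.20 against *Fezf2+/+* (95% interval 0.04 to 0.36, limma adjusted p = 0.18). This interval is the narrowest of the 8 and lies within a rise of 1.28-fold.

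*Ptprz1* encodes a receptor tyrosine phosphatase that binds pleiotrophin and is high in radial glia and oligodendrocyte precursors, at chr6:22875502-23052916. It was 10916, 10015 and 7799 in *Fezf2+/+*, 10873, 12237, 11445 and 13659 in *Fezf2-/-*, and 12205 and 12294 in *Fezf2-/-; Fezf2-EnR*. The lowest *Fezf2-/-* library lay just below the highest *Fezf2+/+* library, and the lowest value of all was *Fezf2+/+* replicate bc203, the only *Fezf2+/+* library of litter m2. The log2 fold changes were 0.34 (95% interval 0.10 to 0.58, limma adjusted p = 0.28) in *Fezf2-/-* and 0.37 (95% interval 0.08 to 0.66, limma adjusted p = 0.18) in *Fezf2-/-; Fezf2-EnR*. Without replicate bc203 they were 0.20 and 0.23, each less than the value over all libraries by over 1.5 times, and in litter m1 alone the former was 0.18.

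*Vim* encodes vimentin, the main intermediate filament of radial glia, at chr2:13573927-13582826. Its values were 2045, 1958 and 1547 in *Fezf2+/+*, 2193, 2058, 1771 and 1748 in *Fezf2-/-*, and 2104 and 2705 in *Fezf2-/-; Fezf2-EnR*. The highest value was that of *Fezf2-/-; Fezf2-EnR* replicate bc209 and the lowest that of *Fezf2+/+* replicate bc203, both of litter m2. For *Vim* the log2 fold change was 0.07 (95% interval -0.20 to 0.35, limma adjusted p = 0.87) in *Fezf2-/-* and 0.38 (95% interval 0.05 to 0.70, limma adjusted p = 0.21) in *Fezf2-/-; Fezf2-EnR*. Between the mutant groups it was 0.30 (95% interval -0.01 to 0.61, limma adjusted p = 0.30). Without replicate bc209 these last values were 0.20 and 0.12, and without replicate bc208 0.56 and 0.48.

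**Figure D4:**
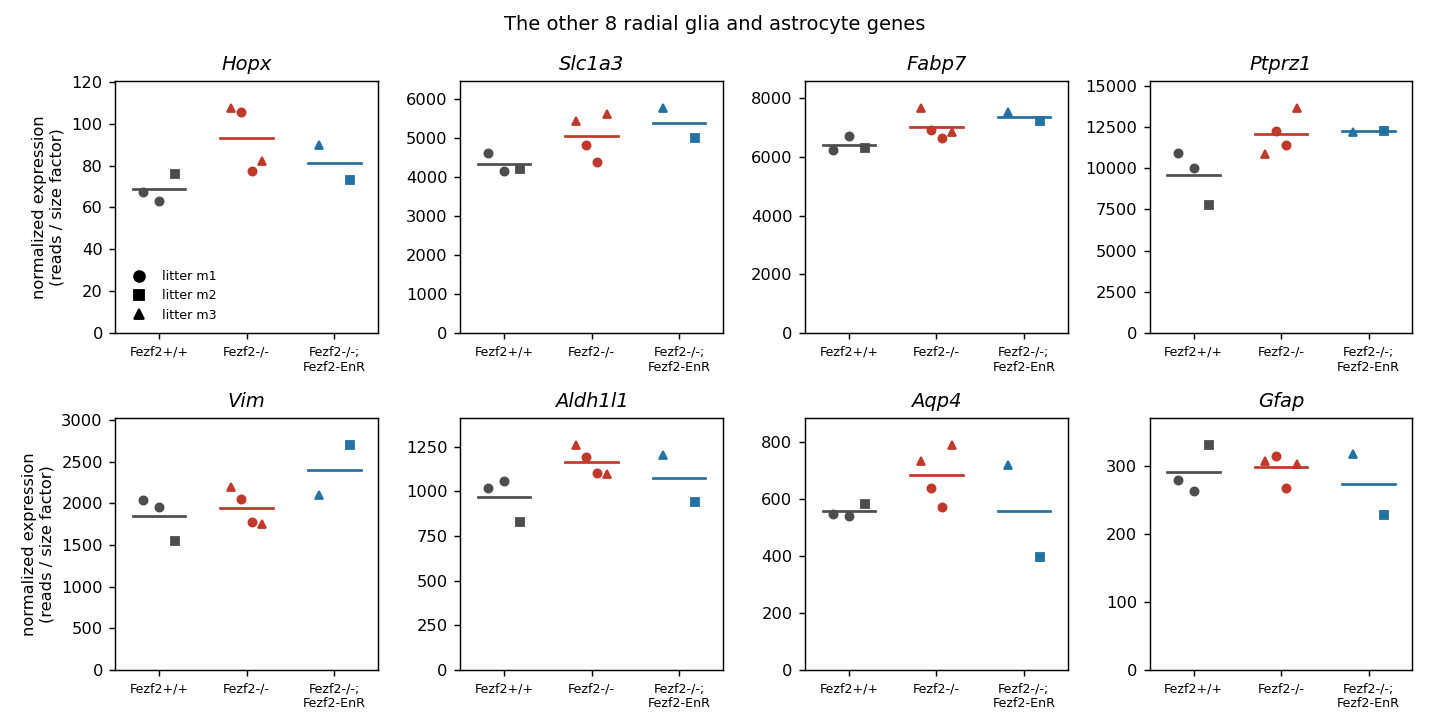
Normalized expression of the other 8 genes in each library, by genotype, on axes that start at 0. Lines are group means and marker shapes the litter. *Hopx* and *Aldh1l1* have all 4 *Fezf2-/-* libraries above the 3 *Fezf2+/+* libraries, and replicate bc209 (square, *Fezf2-/-; Fezf2-EnR*) is the highest for *Vim* and the lowest for *Aqp4* and *Gfap*.

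Among the astrocyte genes, *Aldh1l1* encodes a folate enzyme, 10-formyltetrahydrofolate dehydrogenase, which is widely used to mark astrocytes, at chr6:90486427-90600203. It was 1018, 1058 and 826 in *Fezf2+/+*, 1261, 1192, 1105 and 1096 in *Fezf2-/-*, and 1203 and 943 in *Fezf2-/-; Fezf2-EnR*. All *Fezf2-/-* libraries were above all *Fezf2+/+* libraries. The log2 fold change there was 0.27 (95% interval 0.03 to 0.51, limma adjusted p = 0.39), which became 0.16 without replicate bc203, 0.15 with litter as a block and 0.145 in litter m1 alone. With the transgene it was 0.15 against *Fezf2+/+* (95% interval -0.14 to 0.43, limma adjusted p = 0.56). Exons of Gm45901 on the same strand and Gm15756 on the opposite strand overlap *Aldh1l1*, and reads in the shared parts cannot be told apart.

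*Aqp4*, the water channel of astrocyte end-feet, lies at chr18:15389496-15410982. It was 548, 540 and 581 in *Fezf2+/+*, 731, 640, 571 and 790 in *Fezf2-/-*, and 718 and 396 in *Fezf2-/-; Fezf2-EnR*. The *Fezf2-/-; Fezf2-EnR* libraries thus lay on either side of the whole *Fezf2+/+* range. For *Aqp4* the log2 fold change was 0.29 (95% interval -0.10 to 0.68, limma adjusted p = 0.62) in *Fezf2-/-* and -0.35 (95% interval -0.79 to 0.10, limma adjusted p = 0.40) in *Fezf2-/-; Fezf2-EnR* against *Fezf2-/-*. The latter rested on the choice of library. It was 0.08 without replicate bc209 and -0.78 without replicate bc208, where *Aqp4* was called (limma adjusted p = 0.024) along with 1085 of the 16184 genes tested in that fit, against 124 with all libraries. The 2 *Fezf2-/-* libraries of litter m3 were above those of litter m1, with means of 760.5 and 605.5. With litter as a block the log2 fold change of *Aqp4* in *Fezf2-/-* against *Fezf2+/+* was 0.01 (limma adjusted p = 0.98), and in litter m1 alone it was 0.15.

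*Gfap* encodes the glial fibrillary acidic protein, an intermediate filament that rises as astrocytes mature, at chr11:102887336-102900912. It was 280, 264 and 332 in *Fezf2+/+*, 308, 316, 268 and 304 in *Fezf2-/-*, and 319 and 228 in *Fezf2-/-; Fezf2-EnR*. The 3 groups overlapped. For *Gfap* the log2 fold change was 0.04 (95% interval -0.25 to 0.32, limma adjusted p = 0.94) in *Fezf2-/-*, and the interval allows a fold change between 0.84 and 1.25. It was -0.11 (95% interval -0.45 to 0.23, limma adjusted p = 0.73) in *Fezf2-/-; Fezf2-EnR* against *Fezf2+/+*.

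*Aqp4*, *Gfap* and *Aldh1l1* differed between the 2 *Fezf2-/-; Fezf2-EnR* libraries by more than between the genotypes. Replicate bc209 was below bc208 by 0.86 in *Aqp4*, 0.48 in *Gfap* and 0.35 in *Aldh1l1* on the log2 scale, whereas it was above bc208 by 0.36 in *Vim*, which is less than the difference from *Fezf2+/+*. Replicate bc209 is also the library in which markers of proliferating cells and intermediate progenitors were highest, with median deviations from the mean of all libraries of 0.60 and 1.08 on the log2 scale. *Eomes*, the defining transcription factor of intermediate progenitors, was 506 there, 260 in replicate bc208 and between 59.0 and 182 in the other 7 libraries, and it rose in *Fezf2-/-; Fezf2-EnR* against *Fezf2-/-* (log2 fold change 1.88, limma adjusted p = 0.043). The part of this in the levels of the 8 genes was not tested. In bulk tissue, fewer cells of a type and less RNA per cell cannot be told apart.

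**Figure D5:**
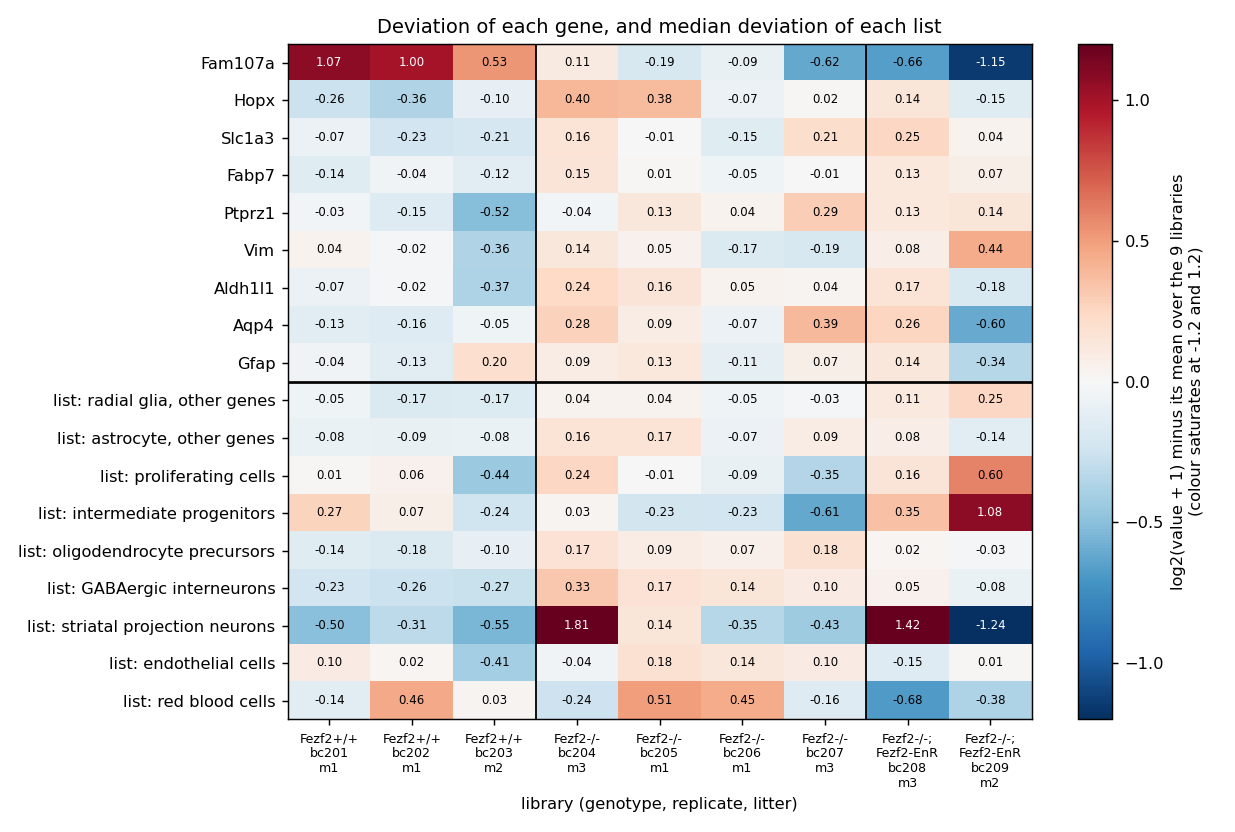
Deviation of log2(value + 1) from its mean over the 9 libraries, for each of the 9 genes (top) and as the median over each marker list (bottom), by library. Red is above and blue below the mean. *Fam107a* runs from 1.07 in *Fezf2+/+* replicate bc201 to -1.15 in *Fezf2-/-; Fezf2-EnR* replicate bc209, and in the latter *Aqp4* is at -0.60, *Gfap* at -0.34 and *Vim* at 0.44 while the intermediate progenitor list is at 1.08.

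Markers of other cell types were set beside the 8 genes. The summed level of 6 genes of oligodendrocyte precursors, which also express *Ptprz1*, was 5570 to 5919 in *Fezf2+/+*, 6523 to 6948 in *Fezf2-/-* and 6208 to 6468 in *Fezf2-/-; Fezf2-EnR*, with 0 of the 6 called in any comparison. That of 6 genes of GABAergic interneurons was 6026 to 6444, 7827 to 8781 and 6066 to 7169, again with 0 called by limma without a litter block. With litter as a block limma called 1, *Gad1*, in *Fezf2-/-; Fezf2-EnR* against *Fezf2-/-* (limma adjusted p = 0.026), beside 0.543% of all genes tested. DESeq2 called 3 of these 6 genes in *Fezf2-/-* against *Fezf2+/+*, where it called 1.94% of the genes it tested. It called 1, *Gad2*, in *Fezf2-/-; Fezf2-EnR* against *Fezf2+/+* (adjusted p = 0.013), beside 5.56%. The part of these cell types in the *Fezf2-/-* values of the 8 genes was not tested. Among 5 genes of red blood cells, the sum was 5697 to 8386 in *Fezf2+/+*, 5107 to 8883 in *Fezf2-/-*, and 4202 and 4554 in *Fezf2-/-; Fezf2-EnR*. Pericyte genes summed to 2530 to 3698 in *Fezf2+/+*, 3332 to 3682 in *Fezf2-/-*, and 3178 and 3090 in *Fezf2-/-; Fezf2-EnR*, so that the mutant groups did not overlap, with 0 of 5 called. The sums of endothelial (2354 to 3296) and microglial (782 to 947) genes overlapped between the genotypes, as did those of ependymal genes (98 to 323), and choroid plexus genes summed to between 7 and 28. In the meningeal fibroblast list *Pdgfra*, which is also on the oligodendrocyte precursor list, was 2047 to 2912 and *Col1a1* 21.1 to 73.7. The summed level, mostly *Pdgfra*, was 2227 to 3142 in all libraries for the 6 genes. Of these 1 was called, *Lum*, which fell from 19.5 to 3.14 in *Fezf2-/-* (log2 fold change -2.40, limma adjusted p = 0.018) and was 19.0 in *Fezf2-/-; Fezf2-EnR*, higher than in *Fezf2-/-* (limma adjusted p = 0.043, not called by DESeq2 or with litter as a block). Of 7 genes of cortical excitatory neurons 1 rose in *Fezf2-/-*, the vesicular glutamate transporter gene *Slc17a6* (log2 fold change 0.59, limma adjusted p = 0.037, not called with litter as a block). None of the 7 striatal genes was called.

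Lists of other genes of the same cells and pathways were set beside the 9. Of 20 other radial glia genes, limma and edgeR called 0 in each of the 3 comparisons, and 7, 12 and 7 had an unadjusted limma p under 0.05. Over all genes tested the shares were 10.8%, 19.3% and 16.9%. DESeq2 called 7 of the 20 in *Fezf2-/-; Fezf2-EnR* against *Fezf2+/+*, where it called 5.56% of the genes it tested. In *Fezf2-/-* it called 1, *Notch2*, beside 1.94%. With litter as a block limma called 1, *Gli3*, in *Fezf2-/-; Fezf2-EnR* against *Fezf2+/+*, beside 0.198% of all genes tested. In *Fezf2-/-* against *Fezf2+/+* 16 of the 20 had a log2 fold change above 0 with a median of 0.20, and in *Fezf2-/-; Fezf2-EnR* against *Fezf2+/+* 17 of the 20 with a median of 0.36. The libraries of *Fezf2-/-; Fezf2-EnR* were all above those of *Fezf2+/+* for 14 of them, beside 17.3% of all genes tested. Among the radial glia transcription factors, *Sox9* had means of 480 ± 25.9 (SD, n = 3), 581 ± 66.3 (SD, n = 4) and 714 ± 22.6 (SD, n = 2) in *Fezf2+/+*, *Fezf2-/-* and *Fezf2-/-; Fezf2-EnR* (limma adjusted p = 0.096 for the last against the first). *Sox2* was 864 ± 62.5 (SD, n = 3), 1038 ± 108 (SD, n = 4) and 1179 ± 3.07 (SD, n = 2) in the same order (limma adjusted p = 0.11), and *Pax6* was 233 ± 53.5, 261 ± 36.5 and 344 ± 75.7 (limma adjusted p = 0.19). Without replicate bc209, which was high in progenitor genes, 17 of the 20 were still above 0, with a median of 0.28.

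Of 30 other astrocyte genes tested, 24 had a log2 fold change above 0 in *Fezf2-/-* against *Fezf2+/+*, with a median of 0.19. There limma, edgeR and DESeq2 called 0, and 9 had an unadjusted limma p under 0.05, beside 10.8% of all genes tested. Under the litter block 20 of the 30 were above 0 with a median of 0.09. Against *Fezf2+/+* in *Fezf2-/-; Fezf2-EnR* limma called 0, and DESeq2 called 4, *Sox9*, *Nfib*, *Gldc* and *Cst3*, beside 5.56% of the genes it tested. Between the mutant groups 22 of the 30 were below 0 in *Fezf2-/-; Fezf2-EnR* with a median of -0.13, whereas without replicate bc209 14 of the 30 were below 0 with a median of 0.01. The gene that limma called there was *Cst3*, which encodes the protease inhibitor cystatin C. The means of *Cst3* in *Fezf2+/+*, *Fezf2-/-* and *Fezf2-/-; Fezf2-EnR* were 2709 ± 252 (SD, n = 3), 2757 ± 156 (SD, n = 4) and 2042 ± 31.6 (SD, n = 2), and it fell by 0.43 on the log2 scale between the last pair (limma adjusted p = 0.042). The call was lost with litter as a block (limma adjusted p = 0.094), with only those groups in the fit (0.062), and without replicate bc201, bc204, bc205, bc206, bc207 or bc209 (0.063 to 0.38), with the log2 value between -0.46 and -0.39. Replicates bc208 and bc209 were at 2064 and 2019, below all 7 other libraries. Of the glycolytic enzyme gene *Aldoc*, the glutamate transporter gene *Slc1a2* and *S100b*, log2 fold changes in *Fezf2-/-* were 0.18, 0.08 and 0.23 (limma adjusted p between 0.46 and 0.87).

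In the pathway lists limma and edgeR called no gene in any comparison. Of the 76 different genes in these lists (with *Fam107b*), 19, 21 and 20 had an unadjusted limma p under 0.05. Over all genes tested the shares were 10.8%, 19.3% and 16.9%. DESeq2 called 4, 10 and 3 of the 76, where it called 1.94%, 5.56% and 3.07% of the genes it tested. Some of those it called, *Notch2*, *Sox9*, *Nes*, *Tnc* and *Nfib*, are also among the other radial glia or astrocyte genes above. The lists were 35 genes of gliogenic signalling (the JAK-STAT, NOTCH, BMP and FGF receptor pathways and NFI factors), 9 intermediate filament genes, 5 transporters of the Slc1 family, 2 fatty acid binding proteins, 7 aquaporins and anchors of *Aqp4*, 9 ligands and partners of *Ptprz1*, and 8 folate enzymes. Median log2 fold changes of the signalling genes were 0.11 in *Fezf2-/-* and 0.19 in *Fezf2-/-; Fezf2-EnR* against *Fezf2+/+*. Of these genes, *Zbtb20* had a log2 fold change of 0.72 in *Fezf2-/-; Fezf2-EnR* against *Fezf2+/+* (limma adjusted p = 0.083). It was called there with litter as a block (limma adjusted p = 0.025). DESeq2 called it there and against *Fezf2-/-* (adjusted p = 2.12e-05 and 0.0056). The STAT3 gene *Stat3*, which drives *Gfap* in astrocytes, was at 494 ± 18.0 (SD, n = 3), 557 ± 77.1 (SD, n = 4) and 530 ± 38.8 (SD, n = 2) in *Fezf2+/+*, *Fezf2-/-* and *Fezf2-/-; Fezf2-EnR*. The neuronal filament gene *Nefl* had means of 1718 ± 144 (SD, n = 3) and 1077 ± 212 (SD, n = 4) in *Fezf2+/+* and *Fezf2-/-* (log2 fold change -0.69, limma adjusted p = 0.097, called by DESeq2 and with litter as a block), whereas *Nes*, the filament of neural stem cells, was 1739 ± 196 (SD, n = 3) and 1830 ± 119 (SD, n = 4). *Fabp5*, a relative of *Fabp7*, had means of 5063 ± 157 (SD, n = 3) and 4355 ± 160 (SD, n = 4) in the same groups (log2 fold change -0.22, limma adjusted p = 0.13), and all *Fezf2-/-* libraries were below those of *Fezf2+/+*. Of the *Ptprz1* ligands, *Ptn* (pleiotrophin) had log2 fold changes of -0.16 and -0.13 against *Fezf2+/+* in *Fezf2-/-* and *Fezf2-/-; Fezf2-EnR*, and *Mdk* (midkine) of -0.18 and 0.25.

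Likeness across libraries was measured as Pearson's r of log2(value + 1) over the 9 libraries with genes of a mean of at least 50. The 5 genes most like *Fam107a* among 12963 were *Ddx56* (r = 0.967), *Cuedc2* (0.966), *Atp5sl* (0.964), *Rab4a* (0.961) and *Lemd2* (0.950). These r include the group differences on which *Fam107a* was chosen, and within groups they were 0.889, 0.858, 0.783, 0.794 and 0.874 in the same order. None of the 5 is on chromosome 14 or among the radial glia and astrocyte lists. None was called by limma, beside 0.858%, 0.117% and 0.766% of all genes tested in the 3 comparisons. The genes most like *Vim* were *Kif11*, *Spc25* and *Top2a*, which act in mitosis, with r of 0.969, 0.949 and 0.945. Those most like *Ptprz1* were *Astn1* (0.968), *Abca1* (0.946) and *Notch1* (0.945). Those most like *Fabp7* were *Rnaset2b* (0.965), *Sox2* (0.937) and *Sp9* (0.926). Of these, *Notch1* and *Sox2* are on the list of other radial glia genes. *Aqp4* was closest to *Cpne7*, *Icam5* and *Gas6*, *Gfap* to *Snph*, *Rhbdd3* and *Rdh13*, *Slc1a3* to *Acvr2a*, *Dock4* and *Rhbdl3*, *Aldh1l1* to *Rwdd3*, *Tcf7l1* and *Sema5b*, and *Hopx* to *Cep85*, *Tmem38b* and *Caskin2*. Among the 9 genes, r was highest between *Aqp4* and *Gfap* (0.802) and lowest between *Fam107a* and *Slc1a3* (-0.668). The latter r also includes the group differences on which *Fam107a* was chosen, so no conclusion is drawn from its sign. Among pairs without *Fam107a*, r was lowest between *Vim* and *Gfap* (-0.59). These points share libraries and litters, the highest of many correlations is high by selection, and r over 9 libraries is given as a description.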

How the data were processed

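Poly(A) RNA from the cortex of 9 P0 mice was sequenced by the authors, who counted reads per gene and divided them by a DESeq size factor, so that the deposited values are a normalized signal with 2 decimals. The submitters' notes name mm10, Bowtie, STAR and DESeq, and the paper also names TopHat. The annotation, counting tool and strand setting are not given in the sources used here. Genotype and litter come from the labels. The methods give more *Fezf2+/+* mice than the 3 libraries analysed here.

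Dividing by what a single read is worth in each library returned whole reads for 100.0% of values (tolerance 0.011). In bc204 and bc208 a read is worth 1.004 and 0.9956, so near 1 that low values cannot be told from plain whole numbers, and recovery there is less certain. The count tests used all 9.

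log2(value + 1) was tested with limma 3.58.1 in R 4.3.3 (trend, 1 coefficient per genotype, no covariate) on 16197 genes (mean across libraries not under 10) and called at a Benjamini-Hochberg adjusted p under 0.05. Fold changes on this scale understate those of low genes. P-values measure the spread between single-mouse libraries, shared over groups because 1 group has 2. edgeR 4.0.16 and DESeq2 1.42.0 on whole reads, other pseudocounts, filters and scalings, litter as a block, litter m1 alone and each library left out were alternatives. The fit was tested on simulated data. The members, gene lists and tests were chosen with earlier results of these data known.

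Positions are from GENCODE M21 (GRCm38), matched by 24595 of 24624 identifiers. Named genes are the 9, list genes that were called and up to 3 others in list order, the genes most like each of the 9, and genes called near *Fam107a* and *Fezf2*. Marker genes named for a call, list genes named for a call by an alternative fit, and the genes within 500 kb of *Fam107a*, were chosen after their values were seen.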

Additional observations from a re-analysis of the deposited data

How the results depend on the processing

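Over 20 alternative settings the 24 log2 fold changes of the 8 genes besides *Fam107a* were refitted 463 times. Of the 24, 14 kept their sign throughout, and 15 refits of the other 10 had the opposite sign. In *Fezf2-/-* against *Fezf2+/+*, *Vim* was -0.067 in litter m1 alone and -0.049 to 0.152 with 1 library left out, and *Gfap* was -0.057 with litter as a block and -0.032 to 0.133 with 1 library left out. In *Fezf2-/-; Fezf2-EnR* against *Fezf2+/+*, *Aqp4* was 0.004 with edgeR and 0.002 with DESeq2, and with 1 library left out it was -0.49 to 0.37, *Aldh1l1* -0.029 to 0.322 and *Gfap* -0.35 to 0.13. In *Fezf2-/-; Fezf2-EnR* against *Fezf2-/-*, *Aldh1l1* was 0.037 with litter as a block, and with 1 library left out it was -0.30 to 0.05, *Slc1a3* -0.01 to 0.20, *Ptprz1* -0.019 to 0.091, *Aqp4* -0.775 to 0.083 and *Gfap* -0.385 to 0.094. The number of the 8 called there was 0 to 1 with 1 library left out and 0 in every other setting and comparison. *Fam107a* lay between -1.24 and -0.90, between -2.02 and -1.44, and between -0.95 and -0.44 in the 3 comparisons. The cause was not tested.

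The fit with litter as a block (replicate block) called 0 of the 8 genes in each comparison. The calls over all genes moved by over 1.5 times with several settings. In the 3 comparisons DESeq2 called 314, 640 and 450 genes, where limma called 139, 19 and 124. With litter as a block limma called 32 in the second comparison, in litter m1 alone 239 in the first, with a mean of at least 50 it called 10 in the second, and with only the libraries of the groups compared it called 220, 11 and 67. With 1 library left out the counts were 66 to 218, 8 to 492 and 21 to 1085. With 2 *Fezf2-/-; Fezf2-EnR* libraries, intervals for that group rest on the spread of all groups, and *Fam107a*, at 16 to 101 reads, is limited by counting.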
